A study of Homo sapiens with 4 samples.

Results

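Cancer-testis antigen genes are normally read in germ cells of the testis and kept silent in most other adult tissues, and many tumours read them again. Most of them lie on the X chromosome in families of near-identical copies, among them MAGE, GAGE, PAGE, XAGE, SSX, SPANX, CT45 and CTAG, while PRAME lies on chromosome 22. In cells that do not read them their promoters carry DNA methylation, and their proteins can be shown to T cells on MHC class I molecules, for which MAGEA3, MAGEA4, PRAME and the CTAG1B product NY-ESO-1 have been used as targets. The members described here were the probe sets with exactly 1 gene symbol that was PRAME or began with MAGEA, MAGEB, MAGEC, GAGE, PAGE, XAGE, SSX, SPANX, CT45 or CTAG. There were 89 such probe sets, of 36176 with 1 symbol, and they stood for 88 of 33458 genes, because MAGEB3 had a pair of probe sets. Of the 89, 59 belonged to protein-coding antigen genes and 16 to pseudogenes or noncoding transcripts, and 14 met the rule only by the first letters of their name. These 14 were SSX2IP, a protein that binds SSX2 and serves at centrosomes and cell junctions, and 13 CTAGE genes and pseudogenes, whose encoded family is related to proteins of endoplasmic reticulum export.

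Total RNA of the human osteosarcoma lines Saos-2 and MG-63 was hybridised to 4 Affymetrix arrays, 1 for each line and hairpin. The groups were Saos-2 cells transfected with sh-circ_0000073, a short hairpin RNA against the circular RNA hsa_circ_0000073, Saos-2 cells transfected with the control hairpin sh-NC, MG-63 cells with sh-circ_0000073 and MG-63 cells with sh-NC. The sample titles write si-hsa_circ_0000073 and si-NC for the same conditions. Each line is a single established tumour line grown from 1 patient, and no probe set of the circular RNA itself was matched here, so the knockdown has no value. A member's 4 values are given in the order of the groups above, sh-circ_0000073 before sh-NC within a line, as log2 signals, where a step of 1 is a doubling.

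The array medians were 3.74 to 3.75. The 838 olfactory receptor probe sets, whose genes are silent in most tissues outside the nose, had 99th percentiles of 5.68 to 5.91 on the 4 arrays. A member is called on in a line where its signal was at least 6 on both arrays of that line, off where it was under 6 on both, and mixed otherwise. The line labels were checked by 3 genes. ALPL, a phosphatase of bone-forming cells, had 15.81 and 16.57 in Saos-2 and 3.97 and 3.89 in MG-63, whereas RB1, a gene lost in part in Saos-2, had 5.78 and 6.17 in Saos-2 and 11.91 and 11.90 in MG-63. CDKN2A had 14.04 and 11.90 in Saos-2 and 2.94 and 2.99 in MG-63. None of the 14 germ cell markers, among them DDX4, DAZL and PRM1, was on in either line, with signals of 2.87 to 5.12 in Saos-2 and 2.92 to 5.82 in MG-63. Of 6 markers of other cell types, PTPRC, PECAM1, CDH5 and ALB were off in both lines, EPCAM had 9.59 and 9.45 in Saos-2 against 3.43 and 3.26 in MG-63, and KRT8 was on in both.

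Saos-2 read a set of MAGE and SPANX genes and SSX1, which were off or low in MG-63, and MG-63 read PRAME, which was off in Saos-2. PAGE5, CTAG1B and CTAG2 were on in Saos-2 too, but only at 6.15 to 7.16, against 5.23 to 5.92 in MG-63. Probe sets that name both XAGE1A and XAGE1B, outside the member rule, were also on in Saos-2 and off in MG-63. In Saos-2, 17 of the 89 members were on and 72 were off, a share of 19.1% against 31.5% of all 36176 probe sets. In MG-63, 4 members were on, 84 were off and MAGEA8 was mixed, so that 4.49% were on, against 31.6% of all. Both shares lay under those of the whole array. Of the members, 14 were on in Saos-2 and not in MG-63, PRAME was on in MG-63 and not in Saos-2, and SSX2IP, SPANXA1 and SPANXA2 were on in both. The remaining 71 probe sets stayed under 6 on all 4 arrays. Their signals were 2.52 to 5.77 in Saos-2 and 2.75 to 5.33 in MG-63. The same split by line was not counted over all 36176 probe sets. Whether the split of the members is unusual for the array was therefore not tested. Fewer cells that read a gene and less RNA per cell cannot be told apart in such bulk samples. Just above the level lay PAGE5 with 6.15 and CTAG1B with 6.24 and 6.27 in Saos-2, and SPANXA2 with 6.17 in MG-63. Just below it lay, in Saos-2, MAGEA4 with 5.77 and, in MG-63, CTAG1B with 5.92 and 5.78, MAGEA8 with 5.86, CTAG2 with 5.79 and SPANXD with 5.75.

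**Figure D1:**
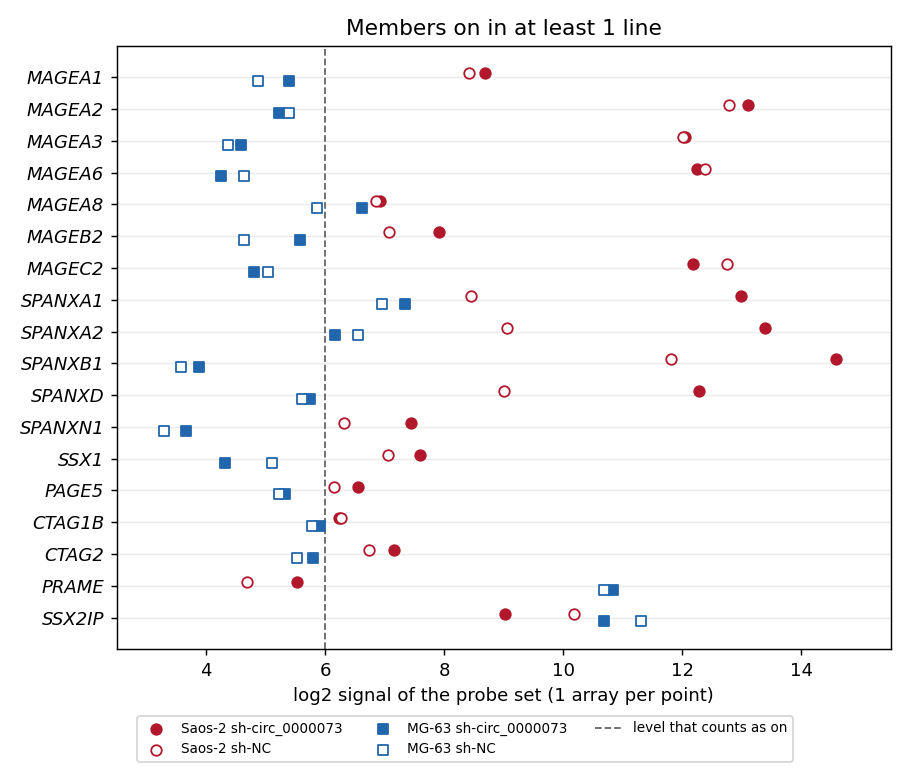
Log2 signal on each of the 4 arrays (horizontal axis) of the 18 members that were on in at least 1 line, with Saos-2 as red circles and MG-63 as blue squares, filled for sh-circ_0000073 and open for sh-NC. MAGEA2, MAGEA3, MAGEA6 and MAGEC2 sat at 12.02 or more on both Saos-2 arrays and at 5.40 or less on both MG-63 arrays, PRAME showed the opposite order, and the 4 coding SPANX genes had their filled red circle well to the right of the open one.

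The lines were compared over 2 arrays each by limma, with the hairpin as a second term, and p-values were adjusted over all 36176 probe sets. The arrays of a line differ in their hairpin, and nothing in the labels says that they came from separate cultures, so the p-values concern these 4 arrays only. With both terms fitted, the spread left over for a probe set is the disagreement of the lines in their hairpin difference. Limma moderates it over all probe sets, and it is not a spread between replicates. By this test 21 of the 89 members, 23.6%, were higher in Saos-2, against 11.9% of all probe sets, and 2 members, 2.25%, were lower, against 13.7% of all. The median difference between Saos-2 and MG-63 was 0.16 over the members and -0.05 over all probe sets. The 2 lower members were PRAME and SSX2IP. The 21 higher ones comprised 14 that were on in Saos-2 and 7 that stayed under 6 on every array, namely SSX2B, SSX5, SSX14P, CT45A2, CT45A5, PAGE2 and CTAGE12P, which differed by 0.78 to 1.22 on the log2 scale at signals of 3.06 to 5.47. With 1 array left out and the line as the only term, the count of higher members was 8 to 14. It was 10 without the Saos-2 sh-circ_0000073 array, 14 without the Saos-2 sh-NC array, 10 without the MG-63 sh-circ_0000073 array and 8 without the MG-63 sh-NC array.

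**Figure D2:**
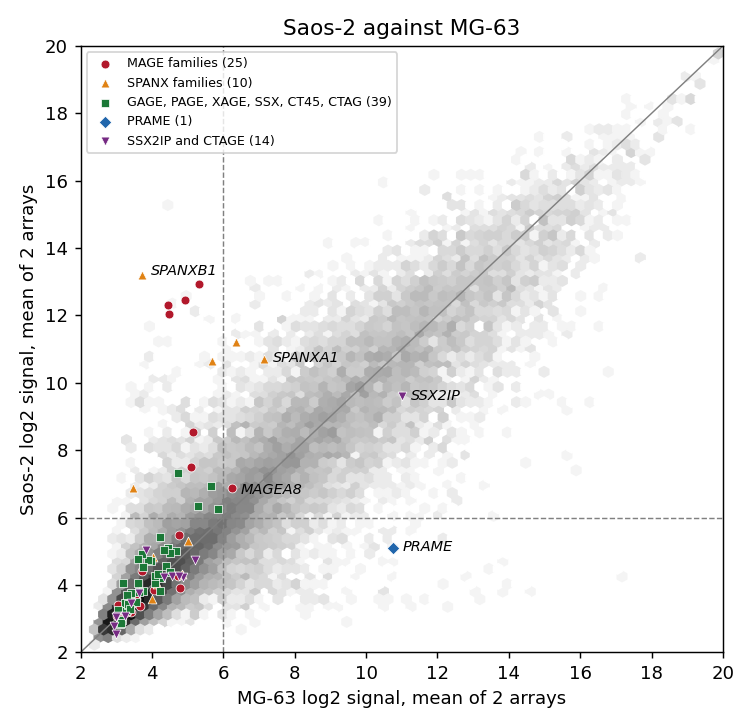
Mean log2 signal of 2 arrays in Saos-2 (vertical axis) against that in MG-63 (horizontal axis), with all 36176 probe sets as grey hexagons shaded by number on a log scale and the 89 members as coloured points by family group; dashed lines mark the level of 6. Most members lay at the low corner with both means under 6, a group of MAGE and SPANX members lay high in Saos-2 and low in MG-63, and PRAME lay alone on the other side.

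The MAGEA genes encode melanoma antigens that bind E3 ubiquitin ligases and steer them to their targets. MAGEA2 had a log2 signal of 13.10 and 12.79 in Saos-2 and 5.22 and 5.40 in MG-63, a difference of 7.64 (SE 0.29, adjusted p = 3.49e-06 by limma). A probe set that names both MAGEA2 and MAGEA2B, outside the member rule, had 12.46 and 12.34 in Saos-2. In MG-63 it had 6.21 and 6.05, just over the level that counts as on, so MAGEA2 was off there by 1 probe set only. MAGEA3, which works with the ligase TRIM28 and has been a vaccine antigen, had 12.04 and 12.02 in Saos-2 and 4.59 and 4.37 in MG-63, a difference of 7.55 (SE 0.284, adjusted p = 3.43e-06 by limma). MAGEA6, its close copy, had 12.25 and 12.38 in Saos-2 and 4.25 and 4.64 in MG-63, a difference of 7.87 (SE 0.285, adjusted p = 2.92e-06 by limma). For the single-symbol probe sets of these 3 genes both Saos-2 arrays were high and both MG-63 arrays low, with a gap of several log2 units. Since the sequences of the genes are close, their probes may share signal. MAGEA1, the first antigen of the family to be found by tumour-reactive T cells, had 8.69 and 8.41 in Saos-2 and 5.40 and 4.88 in MG-63, a difference of 3.41 (SE 0.286, adjusted p = 0.000113 by limma). MAGEA8 had 6.92 and 6.85 in Saos-2 and 6.62 and 5.86 in MG-63. Its lines did not overlap, but its difference of 0.65 was not called (SE 0.309, adjusted p = 0.191 by limma). MAGEA4, the target of an engineered T cell treatment in sarcoma, was off, with 5.77 and 5.20 in Saos-2 and 4.79 and 4.72 in MG-63 (difference 0.73, adjusted p = 0.108 by limma). The other 6 MAGEA probe sets, of MAGEA10, MAGEA11, MAGEA5P, MAGEA7P, MAGEA13P and MAGEA8-AS1, were off on all arrays, and none of them was called between the lines. A probe set that names MAGEA9 and MAGEA9B, outside the member rule, had 6.48 and 6.74 in Saos-2 and 3.44 and 3.66 in MG-63. Another probe set of MAGEA9 and MAGEA9B was mixed in Saos-2, with 5.45 and 6.03, and had 4.07 and 4.56 in MG-63.

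The MAGEA promoters are shown because MAGEA2, MAGEA3 and MAGEA6 were read together in Saos-2 while MAGEA4 was not. They come from the RefSeq table of build GRCh38.p14, which held a promoter for 53 of the 88 member genes, not for MAGEA1, and for each gene the first one listed was taken, as the 250 bases before the start. The upstream bases of MAGEA3 and MAGEA6 were identical. A script searched for the longest stretch shared by MAGEA2, MAGEA3, MAGEA6 and MAGEA8 and found GGATGTGACGCC, 12 bases long. It begins with GGATGTG, which holds the GGAT that proteins of the ETS family can bind, and both were searched on both strands, the longer one overlapping the shorter. Capitals mark these letters, and the sequences run 5′ to 3′ on the gene's strand, for MAGEA3 at chrX:152698544-152698793 (+), MAGEA2 at chrX:152753885-152754134 (-), MAGEA8 at chrX:149880933-149881182 (+) and MAGEA4 at chrX:151912224-151912473 (+).
MAGEA3: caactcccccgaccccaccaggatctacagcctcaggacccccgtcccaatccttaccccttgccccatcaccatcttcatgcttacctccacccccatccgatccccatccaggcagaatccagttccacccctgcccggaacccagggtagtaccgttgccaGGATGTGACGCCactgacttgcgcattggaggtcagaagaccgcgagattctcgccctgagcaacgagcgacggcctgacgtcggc
MAGEA2: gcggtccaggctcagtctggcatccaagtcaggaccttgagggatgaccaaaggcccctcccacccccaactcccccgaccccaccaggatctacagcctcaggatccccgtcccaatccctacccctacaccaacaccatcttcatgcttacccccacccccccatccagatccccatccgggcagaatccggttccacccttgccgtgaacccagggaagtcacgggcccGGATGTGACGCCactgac
MAGEA8: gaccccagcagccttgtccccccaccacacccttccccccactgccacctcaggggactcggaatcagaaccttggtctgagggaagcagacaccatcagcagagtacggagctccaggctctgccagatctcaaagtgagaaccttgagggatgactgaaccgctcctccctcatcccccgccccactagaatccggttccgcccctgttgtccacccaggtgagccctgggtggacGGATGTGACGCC
MAGEA4: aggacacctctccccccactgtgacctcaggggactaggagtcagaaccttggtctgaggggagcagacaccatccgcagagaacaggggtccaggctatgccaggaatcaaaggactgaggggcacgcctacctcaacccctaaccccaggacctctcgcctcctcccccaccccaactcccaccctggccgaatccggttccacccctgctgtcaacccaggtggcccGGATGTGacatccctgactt
The 12 bases were in 12 of 35116 upstream windows, 0.0342%, of 10 genes. These were MAGEA2, MAGEA2B, MAGEA3, MAGEA6, MAGEA8, MAGEA12, CSAG1, CSAG3, MAGEB16 and CCDC90B. The windows of CSAG3 and MAGEA2 overlap, as do those of CSAG1 and MAGEA12, and each pair holds the same site, read on opposite strands. The genes are thus more than the separate sites, and the stretch was in MAGEA2, MAGEA3, MAGEA6 and MAGEA8 by the way it was picked. The 7 letters GGATGTG were in 3.52% of all upstream windows, and among the members in 13 genes, including MAGEA4, MAGEA11, MAGEB2 and MAGEC1. The stretch did not go with signal in every gene, since MAGEB16 had 3.87 and 3.83 in Saos-2 and 4.03 and 4.10 in MG-63. The upstream windows of MAGEA3 and MAGEA6 each held 15 CpG dinucleotides, the pair of bases that carries DNA methylation. Those of MAGEA2 held 9, MAGEA8 8 and MAGEA4 6, beside a median of 11 over all windows. GGATGTG began 86 bases before the start in MAGEA3 and MAGEA6, but 18 in MAGEA2, 12 in MAGEA8 and 20 in MAGEA4. The windows thus cover different parts of the promoters, so these counts do not compare like stretches of sequence. A match of letters is a description and does not show that a protein binds there.

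The MAGEB and MAGEC families each had 1 member on, both in Saos-2. MAGEC2, which binds TRIM28 as well, had 12.18 and 12.76 in Saos-2 and 4.80 and 5.04 in MG-63, a difference of 7.55 (SE 0.286, adjusted p = 3.46e-06 by limma). Its neighbours by name stayed off, MAGEC1 with 4.01 and 4.84 in Saos-2 and 3.98 and 3.47 in MG-63, and MAGEC3 between 3.23 and 3.65 over the 4 arrays. MAGEB2 had 7.92 and 7.07 in Saos-2 and 5.58 and 4.63 in MG-63, a difference of 2.39 (SE 0.281, adjusted p = 0.00059 by limma). The lines did not overlap for MAGEB2, but the call was lost without the Saos-2 sh-circ_0000073 array (difference 1.97, adjusted p = 0.0774 by limma) and without the MG-63 sh-NC array (1.92, adjusted p = 0.0876). The other 9 MAGEB probe sets were off, and none was called.

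SPANX proteins are sperm proteins associated with the nucleus, and the genes SPANXA1, SPANXA2, SPANXB1 and SPANXD are recent copies of each other on the long arm of the X chromosome. SPANXB1 had 14.58 and 11.81 in Saos-2 and 3.88 and 3.58 in MG-63, a difference of 9.47 (SE 0.533, adjusted p = 1.78e-05 by limma). Its MG-63 signals, like those of MAGEA1, MAGEA2, MAGEA3, MAGEA6 and MAGEC2, lay under the 99th percentile of the olfactory receptor probe sets, so these line differences rest on the floor of each probe set, may understate the change and are not ranked against each other. SPANXA1 had 12.98 and 8.45 in Saos-2 and 7.35 and 6.95 in MG-63, a difference of 3.57 (SE 0.807, adjusted p = 0.0142 by limma). SPANXA2 had 13.39 and 9.06 in Saos-2 and 6.17 and 6.56 in MG-63, a difference of 4.86 (SE 0.909, adjusted p = 0.00589 by limma). SPANXD had 12.29 and 9.01 in Saos-2 and 5.75 and 5.62 in MG-63, a difference of 4.97 (SE 0.643, adjusted p = 0.000953 by limma). The lines did not overlap for any of the 4, but the Saos-2 arrays lay far apart from each other, and the size of the difference depended on the sh-circ_0000073 array. Without it the difference was 1.30 for SPANXA1, no longer called (adjusted p = 0.116 by limma), 2.70 for SPANXA2 (adjusted p = 0.0189), 3.33 for SPANXD (adjusted p = 0.00937) and 8.08 for SPANXB1 (adjusted p = 0.00218). Without either MG-63 array the calls of SPANXA1, SPANXA2 and SPANXD were lost (adjusted p = 0.114 to 0.366). SPANXN1, of the older SPANXN branch, had 7.44 and 6.31 in Saos-2 and 3.67 and 3.29 in MG-63, a difference of 3.40 (SE 0.301, adjusted p = 0.000146 by limma). SPANXN2, SPANXN3, SPANXN4, SPANXN5 and the noncoding SPANXA2-OT1 were off on all arrays.

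The sh-circ_0000073 array of Saos-2 stood above its sh-NC array in all 4 coding SPANX genes. The differences were 4.53 for SPANXA1, 4.33 for SPANXA2, 3.28 for SPANXD and 2.77 for SPANXB1, and 1.13 for SPANXN1. Among the 36176 probe sets, ordered from the largest increase in Saos-2, these took places 1, 3, 8, 15 and 456. In MG-63 the same genes differed by 0.40, -0.39, 0.13, 0.30 and 0.38. With 1 array for each condition these differences have no replicate check, the difference between the lines in the response was not tested, and near-identical copies may give 1 signal several times.

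The upstream bases of the SPANX genes are shown because SPANXA1, SPANXA2, SPANXB1 and SPANXN1 were higher together and SPANXN2 was off. SPANXD was higher as well, by 3.28 with sh-circ_0000073 in Saos-2, but it was left out of the search for a shared stretch. SPANXA1 and SPANXA2 were identical over the 250 bases. A stretch of 65 bases, in capitals, was shared by SPANXA1, SPANXA2, SPANXB1 and SPANXN1. Build, table and strand are as for the MAGEA promoters, with SPANXA1 at chrX:141584739-141584988 (-), SPANXB1 at chrX:141002344-141002593 (+), SPANXN1 at chrX:145247253-145247502 (+) and SPANXN2 at chrX:143720753-143721002 (-).
SPANXA1: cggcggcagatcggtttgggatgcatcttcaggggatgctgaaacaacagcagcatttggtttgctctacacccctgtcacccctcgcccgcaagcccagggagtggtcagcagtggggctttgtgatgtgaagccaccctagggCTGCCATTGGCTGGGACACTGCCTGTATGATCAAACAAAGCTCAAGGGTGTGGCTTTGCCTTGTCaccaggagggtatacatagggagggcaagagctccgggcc
SPANXB1: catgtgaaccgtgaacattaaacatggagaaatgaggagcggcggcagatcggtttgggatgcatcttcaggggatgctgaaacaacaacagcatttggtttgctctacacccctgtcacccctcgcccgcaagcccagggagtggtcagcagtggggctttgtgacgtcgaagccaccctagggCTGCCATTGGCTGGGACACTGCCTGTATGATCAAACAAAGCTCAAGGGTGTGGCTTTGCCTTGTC
SPANXN1: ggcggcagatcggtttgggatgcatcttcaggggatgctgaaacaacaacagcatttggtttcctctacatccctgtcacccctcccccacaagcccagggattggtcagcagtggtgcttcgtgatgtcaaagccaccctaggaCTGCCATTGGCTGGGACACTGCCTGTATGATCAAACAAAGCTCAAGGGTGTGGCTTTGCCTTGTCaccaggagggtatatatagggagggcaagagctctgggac
SPANXN2: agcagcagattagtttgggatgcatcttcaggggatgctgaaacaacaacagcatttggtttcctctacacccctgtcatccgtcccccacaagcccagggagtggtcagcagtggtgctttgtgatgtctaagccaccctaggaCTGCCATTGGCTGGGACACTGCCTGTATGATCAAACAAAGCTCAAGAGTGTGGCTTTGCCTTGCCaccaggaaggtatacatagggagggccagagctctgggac
The 65 bases were in 6 of 35116 upstream windows, 0.0171%, of SPANXA1, SPANXA2, SPANXB1, SPANXC, SPANXN1 and SPANXN5. The stretch was picked as the longest one shared by SPANXA1, SPANXA2, SPANXB1 and SPANXN1, so its presence in them was given. SPANXN2 differed from it by G47A and T64C and SPANXN3 by T2C, counted from 1 at the 5′ end of the stretch, with the shared base first. SPANXN5 held it unchanged, although its signals were 5.42 and 5.17 in Saos-2 and 4.79 and 5.25 in MG-63. The window of SPANXD lay at another start and did not hold it. Over the aligned upstream bases SPANXN1 was 94.4% identical to SPANXA1 over 250 bases and SPANXN2 92.0%, and SPANXB1 98.6% over 211. SPANXN2, SPANXN3 and SPANXN5 were off in Saos-2 with upstream letters close to those of SPANXA1, SPANXA2 and SPANXN1, which were on.

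Of the SSX family, repressors whose fusion to SS18 drives synovial sarcoma, only SSX1 was on among 15 probe sets. It had 7.59 and 7.05 in Saos-2 and 4.32 and 5.11 in MG-63, a difference of 2.61 (SE 0.37, adjusted p = 0.00153 by limma), with no overlap. CTAG2 had 7.16 and 6.74 in Saos-2 and 5.79 and 5.52 in MG-63, a difference of 1.30 (SE 0.282, adjusted p = 0.0119 by limma), and the call was lost when any 1 array was left out (adjusted p = 0.0656 to 0.134). CTAG1B, which encodes NY-ESO-1, had 6.24 and 6.27 in Saos-2 and 5.92 and 5.78 in MG-63, close to the level on either side, and its difference of 0.41 was not called (SE 0.281, adjusted p = 0.372 by limma). A probe set that names both CTAG1B and CTAG1A, outside the member rule, was off in both lines. It had 4.90 and 4.47 in Saos-2 and 4.10 and 4.03 in MG-63. PAGE5 had 6.55 and 6.15 in Saos-2 and 5.33 and 5.23 in MG-63, a difference of 1.07 (SE 0.283, adjusted p = 0.0276 by limma), and it too lost its call when any 1 array was left out (adjusted p = 0.0822 to 0.181). The calls of SSX1 (adjusted p = 0.022 to 0.0412), MAGEA2, MAGEA3, MAGEA6 and MAGEC2 were kept in every such fit, whereas those of CTAG2 and PAGE5 were kept in none. All 5 GAGE probe sets, the 4 XAGE, the 7 CT45 and the other 5 PAGE were off on every array. Probe sets that name both XAGE1A and XAGE1B, outside the member rule, were on in Saos-2 and off in MG-63. There they had 10.47 and 9.16, and 10.06 and 8.87, in Saos-2 and 3.80 to 4.86 in MG-63. CT45A8 and CT45A9 had the same values to 2 decimals on all 4 arrays, so they hold 1 measurement, and GAGE12D shared its values with 2 probe sets that name several GAGE12 genes.

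PRAME, a repressor of retinoic acid receptor signalling, ran against the other families. It had 5.52 and 4.68 in Saos-2 and 10.84 and 10.69 in MG-63, a difference of -5.67 (SE 0.31, adjusted p = 1.55e-05 by limma). Both MG-63 arrays were high and both Saos-2 arrays were off, and the call was kept with any 1 array left out. SSX2IP, a member by name only, had 9.02 and 10.18 in Saos-2 and 10.69 and 11.30 in MG-63, a difference of -1.40 (SE 0.282, adjusted p = 0.00842 by limma). It was the only member on at over 9 on all 4 arrays, and its call was lost without the hairpin term (adjusted p = 0.0543) and with any 1 array left out (adjusted p = 0.0546 to 0.338). The 13 CTAGE genes and pseudogenes were off throughout, at 2.52 to 5.12 in Saos-2 and 2.75 to 5.33 in MG-63.

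The comparison of sh-circ_0000073 with sh-NC asked what changed when the circular RNA was targeted. In Saos-2, 8 of the 89 members, 8.99%, were more than 1.5-fold higher with sh-circ_0000073, against 8.91% of all probe sets, and 4 members, 4.49%, were more than 1.5-fold lower, against 5.22% of all. In MG-63, 3 members, 3.37%, were more than 1.5-fold higher, against 8.93% of all, and 3 members, 3.37%, were lower, against 7.18% of all. These shares were at or under those of all probe sets. The median difference over the members was 0.04 in Saos-2, where it was 0.06 over all probe sets, and 0.11 in MG-63, where it was 0.02. Tested over both lines by limma with the line as a term, 0 of the 89 members and 0% of all 36176 probe sets were called, and 7 members had an unadjusted p under 0.05, as had 2628 of all probe sets. A difference present in 1 line only adds to the error of this test, so the lack of a call does not speak to such a difference. The other fits of this test that were tried, with another normalization, filter, moderation or choice of probe set or without the line term, also called 0 members.

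**Figure D3:**
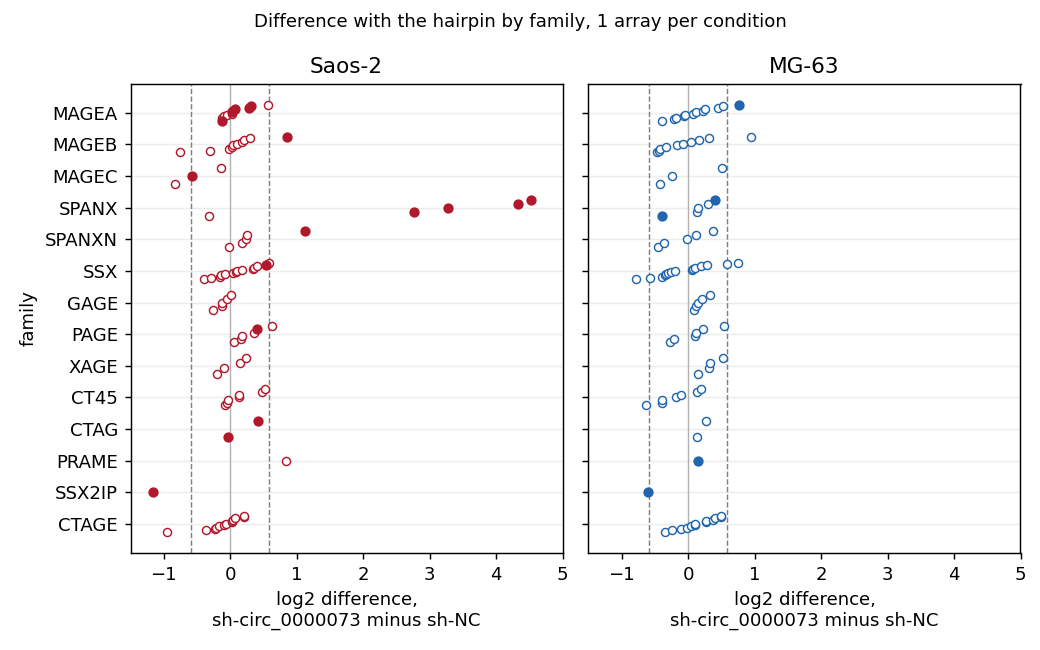
Log2 difference between sh-circ_0000073 and sh-NC (horizontal axis) for each of the 89 member probe sets by family, in Saos-2 (left, red) and MG-63 (right, blue); filled points had a log2 signal of at least 6 on either array of the line, open points did not, and dashed lines mark 1.5-fold. The 4 coding SPANX genes stood at 2.77 to 4.53 in Saos-2 and at -0.39 to 0.40 in MG-63, while the members of the other families stayed between -1.16 and 1.13 in Saos-2.

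The 8 members past 1.5-fold higher in Saos-2 were the 4 coding SPANX genes, SPANXN1, MAGEB2, PRAME and PAGE2, and leaving out the coding SPANX genes, an alternative chosen after the data were seen, left 4. PRAME and PAGE2 stayed off at these levels, PRAME with 5.52 and 4.68 and PAGE2 with 5.23 and 4.60. The 4 lower members were SSX2IP, by 1.16, and CTAGE1, MAGEC1 and MAGEB5, which were off on both arrays. The MAGEA genes called with the smallest p-values between the lines differed less in Saos-2, by 0.31 for MAGEA2, 0.02 for MAGEA3 and -0.13 for MAGEA6. MAGEC2 differed by -0.58, just inside 1.5-fold, and by -0.64 once all differences were centred on their median. In MG-63, MAGEB2, MAGEA8 and SSX13P were past 1.5-fold higher and SSX1, CT45A10 and SSX2IP lower, of which only MAGEA8 (6.62 and 5.86) and SSX2IP (10.69 and 11.30) reached a signal of 6. MAGEB2 was past 1.5-fold higher in both lines, with differences of 0.85 for Saos-2 and 0.95 for MG-63 (mean 0.90, unadjusted p = 0.0139 and adjusted p = 0.614 by limma). SSX2IP was past 1.5-fold lower in both, with differences of -1.16 for Saos-2 and -0.61 for MG-63 (mean -0.89, unadjusted p = 0.0151 and adjusted p = 0.614 by limma). PRAME in MG-63, where it was on, differed by 0.15.

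Genes related to the members were read from lists. Over all 36176 probe sets 31.5% were on in Saos-2 and 31.6% in MG-63. By limma 11.9% of them were higher and 13.7% lower in Saos-2. Whether a list departs from these shares was not tested. Of 10 MAGE type II genes, the widely expressed branch of the MAGE superfamily, 5 were on in Saos-2 and 5 in MG-63, with 1 higher and 2 lower in Saos-2 by limma. TRO, a trophoblast adhesion protein, was the higher one, with 10.01 and 10.30 in Saos-2 and 5.91 and 7.39 in MG-63. MAGED2 and NDN were lower in Saos-2, MAGED2 with 10.95 and 10.49 in Saos-2 and 11.60 and 11.88 in MG-63. NDN was off throughout, with 3.89 and 3.95 in Saos-2 and 4.94 and 4.76 in MG-63. NSMCE3, a subunit of the SMC5/6 complex, was not called, with 5.03 and 5.68 in Saos-2 and 6.42 and 6.04 in MG-63. MAGED1, which acts in neurotrophin receptor signalling, was on in both lines at 12.80 to 13.22. MAGED4 and MAGED4B were not analysed here.

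Of 28 other testis-restricted genes analysed, 4 were on in Saos-2 and 3 in MG-63, against 31.5% and 31.6% of all probe sets. Limma called 3 higher and 2 lower in Saos-2, against 11.9% and 13.7% of all. CSAG1, a gene that lies beside MAGEA12, had 11.42 and 10.24 in Saos-2 and 3.65 and 4.09 in MG-63, a difference of 6.96 (adjusted p = 2.17e-05 by limma). TSGA10 had 7.80 and 8.28 in Saos-2 and 4.76 and 4.37 in MG-63. CTCFL, the testis paralogue of CTCF, was on in both lines, with 10.04 and 10.05 in Saos-2 and 8.68 and 8.40 in MG-63 (difference 1.51, adjusted p = 0.00565 by limma). IL13RA2, a decoy receptor for interleukin 13, was the reverse case beside PRAME, with 3.87 and 3.52 in Saos-2 and 10.24 and 8.94 in MG-63. ADAM2 was called lower but was off throughout, between 3.20 and 4.72.

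**Figure D4:**
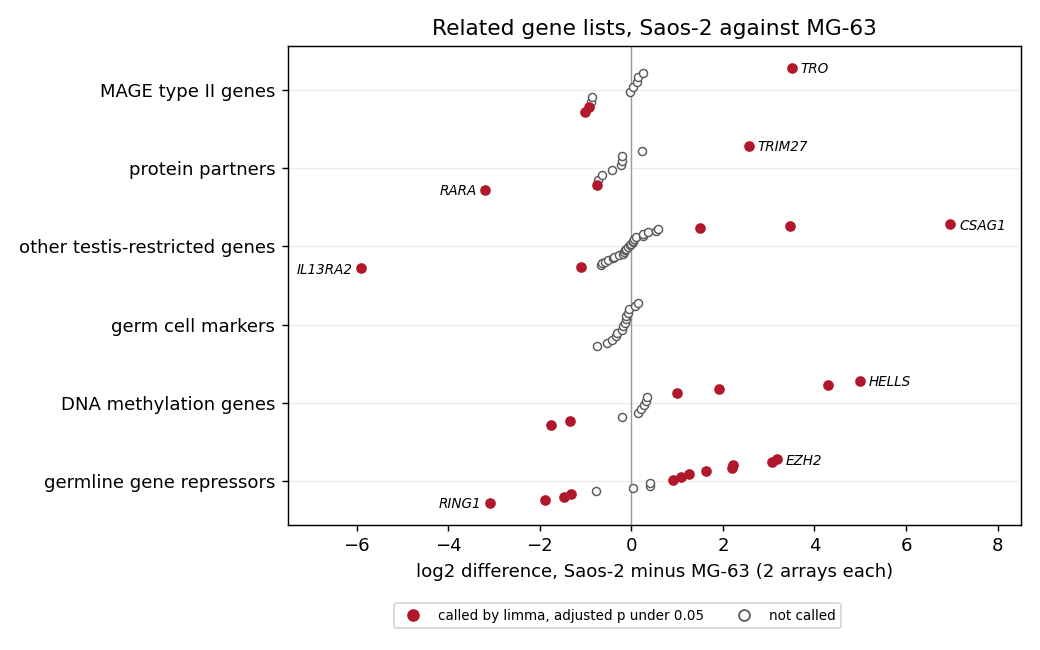
Log2 difference between Saos-2 and MG-63 (horizontal axis, 2 arrays each) of each gene in 6 lists, with filled red points for genes called by limma at an adjusted p under 0.05 and open points for the rest; the outermost gene past 2 on each side of a list is named. CSAG1 and IL13RA2 lay farthest out at 6.96 and -5.90, and no germ cell marker was called.

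Genes that write, read or remove DNA methylation differed in both directions, with 4 of 12 higher and 2 lower in Saos-2 by limma. The shares over all probe sets were 11.9% and 13.7%. DNMT1, the maintenance methyltransferase, had 9.23 and 9.30 in Saos-2 and 8.44 and 8.09 in MG-63, a difference of 1.00 (adjusted p = 0.0396 by limma). Its partner UHRF1 had 10.23 and 10.43 in Saos-2 and 6.85 and 5.22 in MG-63, and HELLS, a remodeller needed for methylation of repeats, had 13.22 and 12.69 in Saos-2 and 8.18 and 7.76 in MG-63. TET2, which oxidises methylcytosine, was higher in Saos-2 with 10.65 and 10.26 against 8.34 and 8.73 in MG-63, whereas TET3 was lower with 7.72 and 5.63 against 9.22 and 7.65. Methylation itself was not measured. Of 16 germline gene repressors, 8 were higher and 4 lower in Saos-2, against 11.9% and 13.7% of all probe sets. In each line 13 of the 16 were on, so the list holds mostly expressed genes, unlike the whole array. EZH2, the enzyme of Polycomb repressive complex 2, had 11.73 and 11.47 in Saos-2 and 8.27 and 8.58 in MG-63. MGA, which recruits the Polycomb complex PRC1.6 to germline genes in mouse cells, had 12.15 and 11.94 in Saos-2 and 8.60 and 9.36 in MG-63. RING1, a ubiquitin ligase of Polycomb repressive complex 1, had 5.81 and 5.55 in Saos-2 and 8.84 and 8.70 in MG-63.

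All 10 genes of the list of protein partners were on in both lines, against 31.5% of all probe sets in Saos-2 and 31.6% in MG-63. TRIM28 did not pass the test, with 10.95 and 10.88 in Saos-2 and 11.39 and 10.83 in MG-63 (difference -0.20, SE 0.269, adjusted p = 0.682 by limma). TRIM27, a further ligase bound by MAGE proteins, had 10.83 and 10.51 in Saos-2 and 7.84 and 8.37 in MG-63, a difference of 2.57 (adjusted p = 0.000725 by limma). RARA encodes a retinoic acid receptor whose signalling, not its RNA level, PRAME is known to repress. It had 7.63 and 6.45 in Saos-2 and 10.17 and 10.28 in MG-63, a difference of -3.19 (adjusted p = 0.000524 by limma). PRKAA1 encodes the AMP-activated kinase subunit that TRIM28 with MAGEA3 or MAGEA6 marks for breakdown. Its RNA was lower in Saos-2 by 0.74 (adjusted p = 0.0181 by limma). That breakdown acts on the protein, which was not measured. The last 6 were USP7, CUL2, ELOB, ELOC, SS18 and SMARCA4, and none of them was called.

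The X chromosome neighbours of the members were looked at after the members' values had been seen. Within 2 measured coding genes of a member that was on in Saos-2 and not in MG-63, by gene order in the RefSeq table, lay 29 coding genes that were no members. Of these, 14 were on in Saos-2 and 10 in MG-63, against 31.5% and 31.6% of all probe sets. Limma called 5 of the 29 higher and 2 lower in Saos-2, against 11.9% and 13.7% of all. The 5 that were on in Saos-2 and not in MG-63 were CSAG1, CSAG3, GABRA3, GABRQ and SLITRK4, of which SLITRK4 was not called between the lines. CSAG3, which faces MAGEA2, had 12.33 and 12.06 in Saos-2 and 4.92 and 5.43 in MG-63. GABRA3, a subunit of the GABA type A receptor near MAGEA3, had 9.00 and 8.39 in Saos-2 and 3.46 and 3.94 in MG-63, and GABRQ, another subunit, had 7.39 and 7.78 in Saos-2 and 5.02 and 5.44 in MG-63. Other neighbours were on in both lines, such as CETN2 and NSDHL beside MAGEA6.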

How the data were processed

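Total RNA of Saos-2 and MG-63 cells with sh-circ_0000073 or sh-NC was measured on 4 arrays, after TRIzol extraction and with a GeneChip WT Pico kit by the study's methods. The authors deposited log2 signals for 135750 probe sets, for which the submitters' processing notes list Affymetrix Expression Console. Its version, the background correction and the summarisation were not given in the sources used here. Groups follow the labels. Gene symbols came from GEO's platform annotation, and 623 of them were brought up to date with the RefSeq table of GRCh38.p14, and 36176 with 1 symbol were used, while 1119 with several and 98455 with none were left out. No array coordinates are given, since no genome was used here.

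A member was on at a log2 signal of at least 6 on both arrays of a line. Within a line a difference past 1.5-fold was counted with no test. Over 4 arrays a linear model with line and hairpin as terms and a mean-variance trend was fitted (limma 3.58.1, R 4.3.3), with Benjamini-Hochberg adjustment at 0.05 and 1 residual degree of freedom, so a difference between the lines in the hairpin response could not be fitted. Tested on simulated arrays of the line comparison with 36176 probe sets, it called 100 of 100 changed by a log2 difference of 4, 99 of 100 changed by 2, and 15 of 35976 unchanged. The simulated spread depended on the signal level only, and the changed probe sets had a mean log2 signal of at least 6. Spread that differs between genes, changes at lower signal and a hairpin response unlike between the lines were not simulated. The counts therefore check the fit and need not hold for the members. The number of arrays limits the precision. Of several probe sets of a list gene, that with the highest mean was used. Tables and figures were made with pandas 2.3.3, numpy 2.4.6 and matplotlib 3.10.9 under Python 3.11.15. Alternatives were other levels, folds, filters, normalizations, fits and sets of probe sets, and each array left out in turn.

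The members, lists and tests were chosen with earlier results of these data known. Named by rule are members on in at least 1 line, the up to 8 members with the largest hairpin difference in each line at a log2 signal of at least 6, PRAME, MAGEA3, MAGEA4, MAGEA6 and CTAG1B, up to 4 genes of each list with the largest line difference, and TRIM28, DNMT1 and CTCFL. Other members, list genes, promoters and neighbours named in the text were chosen after their values were seen.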

Additional observations from a re-analysis of the deposited data

Results flagged for a closer look

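Probe sets that name several genes were outside the rule for members, and 21 of them named genes of these families. Of these, 5 were on in Saos-2 and 2 in MG-63, the latter those of MAGEA2 with MAGEA2B and of SPANXC with SPANXD. The ones described below had at least 6 on an array of Saos-2 and were past 1.5-fold with sh-circ_0000073 there. Their probe sets were not used in the comparisons above, but they may share signal with members. The probe set of SPANXC and SPANXD had 12.94 and 9.66 in Saos-2 and 6.40 and 6.27 in MG-63, a difference of 3.28 with sh-circ_0000073 in Saos-2 and 0.13 in MG-63, the same differences as the probe set of SPANXD alone. It lay above that probe set by the same step on all 4 arrays, so it is no separate measurement of the rise. A probe set of XAGE1A and XAGE1B, genes of the XAGE family whose 4 members with 1 symbol were off, had 10.47 and 9.16 in Saos-2 and 3.80 and 4.32 in MG-63, a difference of 1.31 in Saos-2 and -0.52 in MG-63. Another probe set of the same genes had 10.06 and 8.87 in Saos-2 and 3.92 and 4.86 in MG-63, a difference of 1.19 in Saos-2 and -0.94 in MG-63. The probe set of MAGEA12 and CSAG4 had 6.41 and 5.82 in Saos-2 and 5.46 and 4.60 in MG-63, a difference of 0.59 in Saos-2 and 0.86 in MG-63. None of these differences has a replicate check, the difference between the lines was not tested, and the genes named by 1 probe set cannot be told apart.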

How the results depend on the processing

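No called result changed its direction under any alternative that was run, but a pair of hairpin differences near 0 changed sign. MAGEA3 in Saos-2 differed by -0.04 after centring and -0.07 after quantile normalization, in place of 0.02, and MAGEA2 over both lines by -0.01 after quantile normalization, in place of 0.07. Members on in MG-63 numbered 11 at a level of 5 and 2 at a level of 7, in place of 4, and in Saos-2 22 and 12, in place of 17. Members higher in Saos-2 by limma numbered 8 to 14 with 1 array left out (10 without either sh-circ_0000073 array), in place of 21. Members lower in Saos-2 numbered 4 after quantile normalization, 1 without the hairpin term and 1 to 2 with 1 array left out, in place of 2. With protein-coding antigen genes only, an alternative chosen after the data were seen, 1 member was lower in Saos-2 and 2 were past 1.5-fold lower with sh-circ_0000073 in Saos-2. At 2-fold, 5 members were higher and 1 lower with sh-circ_0000073 in Saos-2, and 0 and 0 in MG-63. Without the SPANX genes other than SPANXN, also chosen after the data were seen, 4 were higher in Saos-2. At a log2 signal of at least 6 on either array, 1 was lower in Saos-2, and 1 was higher and 1 lower in MG-63. Of the line differences of single genes, 166 kept their side of the threshold and 23 lost the call, all in fits with an array left out or without the hairpin term. The cause was not tested. Leaving out an array could not be fitted for the hairpin comparison over both lines. The hairpin comparison over both lines was paired by line, and without the line term it also called 0 members. No replicate block was fitted, since the labels carry no replicate numbers.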

Other observations

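Some genes of the lists differed with sh-circ_0000073 beyond 1.5-fold, with 1 array per condition and no replicate check. TET3, which oxidises methylcytosine, had 7.72 with sh-circ_0000073 and 5.63 with sh-NC in Saos-2, and 9.22 with sh-circ_0000073 and 7.65 with sh-NC in MG-63, so it was higher in both lines (adjusted p = 0.323 over both lines by limma). The histone deacetylase genes HDAC1 and HDAC3 were higher in both lines, HDAC1 with differences of 0.79 for Saos-2 and 0.93 for MG-63, and HDAC3 with 1.08 for Saos-2 and 0.71 for MG-63. UHRF1 differed by -0.20 in Saos-2 and by 1.63 in MG-63. CSAG1 was higher in Saos-2 by 1.18 and differed by -0.44 in MG-63, where it was off, and IL13RA2 was higher in MG-63 by 1.30, where it was on. None of these genes was called over both lines by limma, and whether they bear on the members was not tested.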
